A study of Homo sapiens with 6 samples.

Results

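Expression of 8 claudins, CLDN1, CLDN3, CLDN4, CLDN7, CLDN11, CLDN12, CLDN15 and CLDN23, was described in 3 human prostate cancer lines. A claudin was represented by every probe set of the array to which the platform annotation gives that symbol and no other, which gave 16 probe sets for the 8 genes, out of 19775 genes with such a probe set. The lines were TEM4-18 and TEM2-5, each 1 isolate recovered after PC-3 cells had migrated, in its own experiment, through a monolayer of microvascular endothelial cells from human lung, and their parent PC-3, a line from a bone metastasis. All 3 lines were grown in the same serum-containing medium, with no further treatment or engineered allele named in the labels, and total RNA of each was hybridised to 2 arrays. Whether a line's 2 arrays stem from separate cultures is not stated in the labels, so p-values reflect the spread between arrays only, and that spread may be technical.

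Claudins are tetraspan membrane proteins whose extracellular loops pair between neighbouring cells and build the strands of the tight junction, the seal near the apex of epithelial and endothelial cells. Some members tighten the seal and others form pores for ions, so the set of claudins in a cell shapes how permeable its junctions are. Epithelial cancers often change their claudins, and repressors of the epithelial state such as ZEB1 and Snail bind E-box sequences in the promoters of several junction genes.

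The start regions of 4 of the claudins are shown because these genes cover the range of responses described below, with CLDN7 changed most and CLDN3 without a called change. The sequences are those of RefSeq on build GRCh38.p14, each from 250 bases before to 50 after an annotated transcription start, written 5′ to 3′ on the strand of the gene. Capitals mark the E-box CAGGTG and its reverse complement CACCTG. The windows are chr17:7262429-7262728 on the minus strand for CLDN7, chr3:190322397-190322696 on the minus strand for CLDN1, chr7:73830746-73831045 on the plus strand for CLDN4 and chr7:73770221-73770520 on the minus strand for CLDN3.
CLDN7: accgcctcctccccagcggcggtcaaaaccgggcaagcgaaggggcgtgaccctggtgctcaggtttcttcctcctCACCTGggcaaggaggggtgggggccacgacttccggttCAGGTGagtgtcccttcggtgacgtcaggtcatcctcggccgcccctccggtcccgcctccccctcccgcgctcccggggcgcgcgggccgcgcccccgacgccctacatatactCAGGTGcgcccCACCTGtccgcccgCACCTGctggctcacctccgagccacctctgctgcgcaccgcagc
CLDN1: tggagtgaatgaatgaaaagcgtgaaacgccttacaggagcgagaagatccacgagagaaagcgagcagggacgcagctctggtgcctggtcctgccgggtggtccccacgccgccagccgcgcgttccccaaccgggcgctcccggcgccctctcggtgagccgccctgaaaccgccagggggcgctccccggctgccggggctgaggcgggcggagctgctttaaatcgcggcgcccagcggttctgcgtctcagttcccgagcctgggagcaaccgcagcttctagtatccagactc
CLDN4: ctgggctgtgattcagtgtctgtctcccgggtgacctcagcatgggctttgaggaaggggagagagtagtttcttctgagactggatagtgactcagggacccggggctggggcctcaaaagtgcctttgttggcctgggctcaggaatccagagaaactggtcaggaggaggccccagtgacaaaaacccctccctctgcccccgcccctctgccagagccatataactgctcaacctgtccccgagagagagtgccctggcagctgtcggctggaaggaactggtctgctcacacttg
CLDN3: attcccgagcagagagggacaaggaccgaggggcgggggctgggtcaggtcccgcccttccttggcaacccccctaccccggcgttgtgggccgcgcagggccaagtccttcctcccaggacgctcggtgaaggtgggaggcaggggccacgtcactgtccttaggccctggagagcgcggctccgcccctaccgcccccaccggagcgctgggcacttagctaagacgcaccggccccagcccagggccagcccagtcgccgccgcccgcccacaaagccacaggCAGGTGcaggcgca
The CLDN7 window held 5 E-boxes, which began at positions -174, -135, -20, -9 and 6 counted from the start site, and the CLDN3 window held 1, at position 37. No E-box was found in the CLDN1 and CLDN4 windows. Of 35116 windows of 300 bases in the RefSeq table, 20.6% held at least 1 E-box and 0.094% held 5 or more. The cut of 5 equals the count in the CLDN7 window, so this share does not test that window. RefSeq windows were examined for 7 of the 8 claudins, all but CLDN23, with 9 windows in all, since CLDN7 and CLDN11 each have a further start site, and 2 of these 9 windows held an E-box. The grainyhead-type motif AACNNGTT, searched on both strands and including its stronger form AACCGGTT, was in 0 of the 9 windows and in 3.52% of all windows. These matches describe letters in the windows and no binding was measured.

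The arrays had median signals of 267 to 317 in MAS5 array units, and log2 signals correlated at 0.976 to 0.980 between the 2 arrays of a line across 32768 probe sets, which are not independent replicates. The epithelial keratins KRT8 and KRT18 were bright on all 6 arrays, at 6062 to 23433 and 28960 to 60110.5, and both were called lower in both TEM lines. The log2 fold changes of KRT8 were -1.78 in TEM4-18 and -1.32 in TEM2-5, and those of KRT18 were -1.02 in TEM4-18 and -0.97 in TEM2-5. The prostate antigen KLK3 was at 770.0 to 1301 on an _x_at probe set, and the prostate surface antigen FOLH1 at 58.0 to 199. Of the 12 markers of endothelial cells, the layer the TEM lines had crossed, 7 lay below the filter on low values, among them CDH5 at 23.9 to 201, TEK at 43.3 to 139.9 and the endothelial claudin CLDN5 at 50.5 to 209.5. No marker was listed at 0. The summed signal of the 12 markers was 5381 and 4153 in TEM4-18 and 4628 and 4432 in TEM2-5, against 3184 and 2961 in PC-3, with the endothelial growth factor receptor KDR contributing 1870.0 and 975 in TEM4-18, 1243 and 1258 in TEM2-5, and 305.5 and 146 in PC-3. Of the 5 tested markers, 3 were called higher in TEM4-18 and 2 in TEM2-5 against PC-3, and 0 lower. Of all genes, 13.3% were called higher in TEM4-18 and 8.98% in TEM2-5, while 16.0% and 10.1% were called lower. KDR was called in both lines, with log2 fold changes of 2.40 in TEM4-18 and 2.29 in TEM2-5. The junction protein ESAM gave 815 and 827 in TEM4-18 and 527 and 454 in TEM2-5, against 267 and 291 in PC-3, and was called in TEM4-18 (log2 fold change 1.40, limma adjusted p = 0.000951). The guidance receptor ROBO4 was called in both, with log2 fold changes of 0.73 in TEM4-18 and 0.78 in TEM2-5. PECAM1 and EGFL7 were tested and called in neither line. Their log2 fold changes were -0.40 and -0.51 in TEM4-18, and 0.08 and -0.56 in TEM2-5. The part of these markers in the claudin results was not tested.

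The first comparison asked which claudins differed between TEM4-18 and PC-3. CLDN7 was lower by far the widest margin among the claudins, CLDN1 and CLDN11 were lower by intermediate amounts, and CLDN4 and CLDN12 were lower by less than 2-fold. CLDN3, CLDN15 and CLDN23 did not pass the test. A probe set was tested where its mean over the 6 arrays exceeded 174 array units, which held for 12 of the 16 claudin probe sets and at least 1 of every claudin. Values were compared as log2(signal + 51.8), on which changes of low signals are understated, with limma and a Benjamini-Hochberg adjusted threshold of 0.05 over all tested probe sets. Of the 12 tested claudin probe sets, 6 were lower in TEM4-18, against a background of 12.8% of all tested probe sets called lower and 25.6% called in either direction. None was called higher by limma, and 0 were higher at an unadjusted p under 0.05. The 6 lower probe sets include both of CLDN1. Of these, 218182_s_at was tested only because it was brighter in the other lines. Counted by the brightest probe set of each gene, 5 of 8 claudins were lower, against 16.0% of 13621 genes called lower and 29.3% called in either direction, and the median log2 fold change of the 8 claudins was -0.65, against -0.04 for all genes. The 8 claudins were chosen with earlier results of these data known, so the background shares do not test them as a set. In bulk RNA, fewer cells that express a gene and less RNA per cell cannot be told apart.

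CLDN7, a claudin of epithelial cell borders that binds the adhesion molecule EPCAM, had signals of 477 and 145 in TEM4-18, 1591 and 1276 in TEM2-5, and 6792 and 7405 in PC-3. The 3 lines did not overlap, TEM2-5 lay between the other lines, and on the log2 scale the TEM4-18 arrays were farther apart than those of the other lines. The mean was 311 ± 235 in TEM4-18 and 7099 ± 434 in PC-3 (SD, n = 2 each), a log2 fold change of -4.47 ± 0.35 (SE, limma adjusted p = 7.37e-06), which is 22.1-fold lower. The value was -5.18 without TEM4-18 replicate 1 and -3.76 without TEM4-18 replicate 2, and it passed in both. The array holds 1 single-symbol probe set for CLDN7, so no other probe set of the gene checks this value.

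CLDN1, a barrier-forming claudin needed for the water barrier of skin, was read by 2 probe sets. The brighter, 222549_at, gave 438 and 303 in TEM4-18, 862 and 629 in TEM2-5, and 1429.7 and 1122 in PC-3. The other, 218182_s_at, gave 109 and 154 in TEM4-18, 483 and 283 in TEM2-5, and 823 and 859.9 in PC-3. Both showed the same order of the lines with no overlap between them. CLDN1 fell in TEM4-18 by 1.66 ± 0.24 on the log2 scale on the brighter probe set (SE, limma adjusted p = 0.000482) and by 2.30 ± 0.31 on the other (limma adjusted p = 0.000329), where 4 times the pseudocount gave -1.63. The TEM4-18 mean of 218182_s_at, 132, lay below the filter, so this probe set was tested only because it was brighter in the other lines.

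CLDN11, known from myelin of oligodendrocytes and from the junctions between Sertoli cells of the testis, was bright in these prostate cancer cells on 1 of its 3 probe sets. On 228335_at its signal was 1889 and 2935 in TEM4-18, 4099 and 5475 in TEM2-5, and 6517 and 6770.2 in PC-3, again without overlap between lines. The fall in TEM4-18 was 2.78-fold, a log2 fold change of -1.48 ± 0.19 (SE, limma adjusted p = 0.000244). On 206908_s_at the values were lower, with 330 and 487 in TEM4-18, 589.8 and 649 in TEM2-5, and 369 and 666 in PC-3. PC-3 overlapped both TEM lines there, while both TEM4-18 arrays lay below both TEM2-5 arrays. That probe set did not pass, with a log2 fold change of -0.28 and a 95% interval of -0.93 to 0.37 (limma adjusted p = 0.549). The third, 1561105_at, stayed between 4.98 and 53.2 on all arrays and was not tested. With the 3 probe sets averaged, the difference of CLDN11 was -0.39 on the log2 scale and was not called (limma adjusted p = 0.227). The means of 1561105_at lay below the filter in every line, so this average does not check the fall on 228335_at.

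CLDN4 and CLDN3 lie next to each other on chromosome 7, with 0 coding genes between them in the RefSeq table, and both proteins are receptors of the enterotoxin of Clostridium perfringens. CLDN4 gave 3198 and 2472 in TEM4-18, 4051 and 3880 in TEM2-5, and 5666 and 4526 in PC-3 on its brighter probe set, 201428_at, with no overlap between lines. It was 1.79-fold lower in TEM4-18, a log2 fold change of -0.84 ± 0.14 (SE, limma adjusted p = 0.00166). Its other probe set, 1569421_at, read 43.7 to 227 and was not tested, and with it averaged in, the difference was -0.25 and not called (limma adjusted p = 0.572). The means of 1569421_at lay below the filter in every line, so this average does not check the fall on 201428_at.

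CLDN3 gave 3531 and 2507 in TEM4-18, 3235 and 1970.1 in TEM2-5, and 4336 and 3073 in PC-3 on 203953_s_at. The arrays of the 3 lines overlapped on this probe set, and the first-numbered array was the brighter one in each line. The log2 fold change in TEM4-18 was -0.29 with a 95% interval of -0.82 to 0.24 (limma adjusted p = 0.430), and on 203954_x_at it was -0.25 with an interval of -0.73 to 0.23 (limma adjusted p = 0.452). On 203954_x_at the signals were 1995 and 1919 in TEM4-18, 2197 and 1253 in TEM2-5, and 2577 and 2127 in PC-3. There both TEM4-18 arrays lay below both PC-3 arrays, and TEM2-5 overlapped the other lines. These results do not show that CLDN3 was unaltered, but the lower bounds lie above the estimates for CLDN1, CLDN7 and the brighter CLDN11 probe set. Probe sets ending in _s_at or _x_at can match related transcripts.

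CLDN12, a widely expressed claudin linked to calcium permeability, gave 2651 and 2477 in TEM4-18, 2970.4 and 3013 in TEM2-5, and 3960.4 and 3191 in PC-3. The lines did not overlap, and the PC-3 arrays differed more from each other than the TEM arrays did. The TEM4-18 fall of 0.46 ± 0.13 on the log2 scale was the smallest that passed (SE, limma adjusted p = 0.0199). With an array left out, its line holds 1 array, which the fit assumes to vary like those of the other lines. CLDN12 did not pass without TEM4-18 replicate 2 (-0.42, limma adjusted p = 0.101), without PC-3 replicate 1 (-0.31, limma adjusted p = 0.149) or without the mean-variance trend of the test (limma adjusted p = 0.0888).

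CLDN15, which forms cation pores in intestinal epithelium, gave 942 and 1383 in TEM4-18, 1010.2 and 1241 in TEM2-5, and 1099.7 and 1062 in PC-3 on 219640_at. The lines overlapped on it, with a log2 fold change in TEM4-18 of 0.08 and a 95% interval of -0.36 to 0.51. On 1552845_at the signals were 549.8 and 927 in TEM4-18, 772 and 569 in TEM2-5, and 878 and 1068 in PC-3, with a log2 fold change of -0.41 and an interval of -0.97 to 0.15.

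CLDN23, a claudin of intestinal and other epithelia, was dim, at 403 and 369 in TEM4-18, 308 and 243 in TEM2-5, and 342 and 552 in PC-3 on 228707_at. TEM4-18 lay within the PC-3 range, with a log2 fold change of -0.16 and a 95% interval of -0.82 to 0.50. Its other probe sets were not tested, 228704_s_at at 9.67 to 17.0 and 228706_s_at at 45.0 to 300.3, the highest of these on a single PC-3 array.

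**Figure D1:**
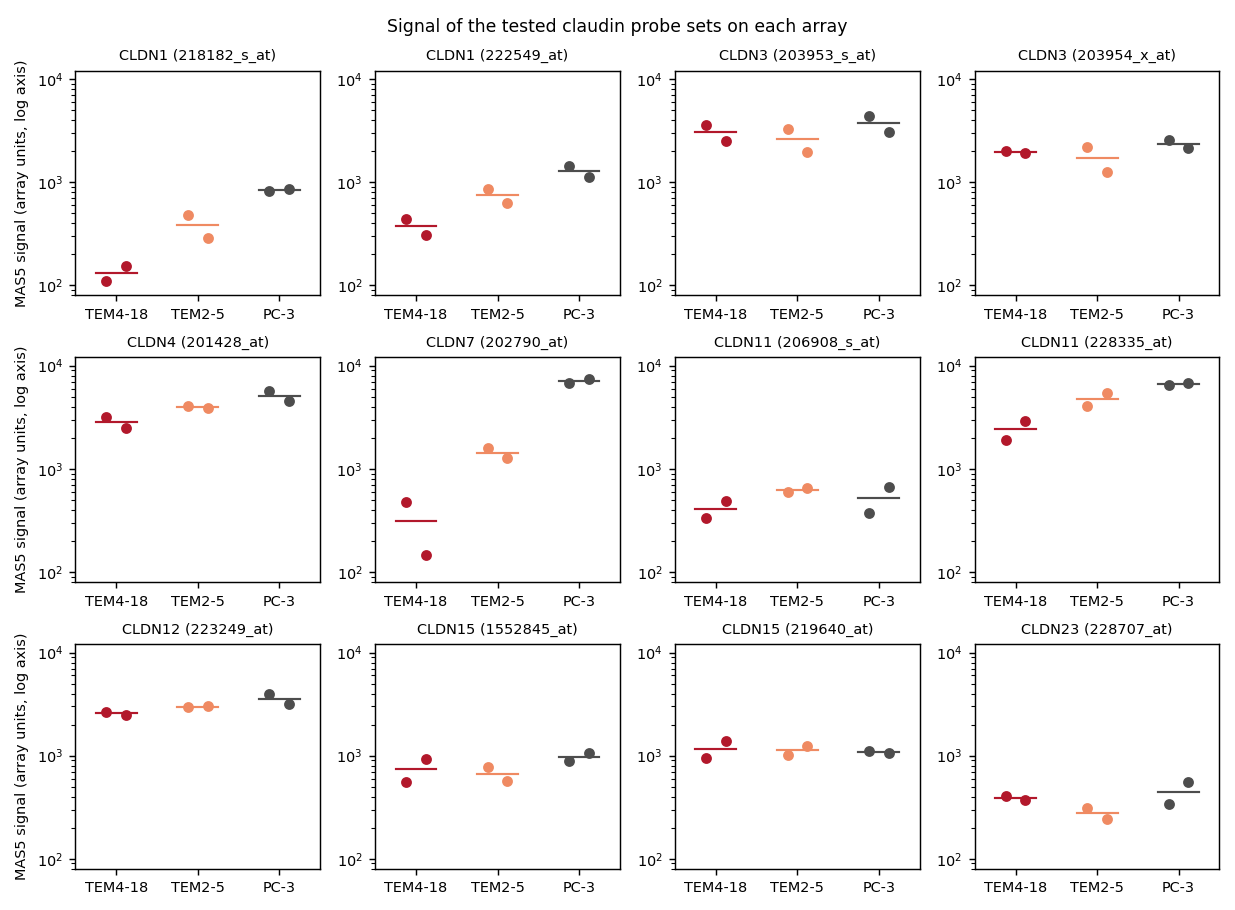
Signal of each of the 12 tested claudin probe sets in MAS5 array units on a log axis, by line, with 1 point for each of the 2 arrays and a bar at their mean. CLDN7 (202790_at) spans 145 to 7405 across the lines, while all lines overlap on 203953_s_at of CLDN3 and 219640_at of CLDN15.

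The second comparison put TEM2-5, the line of the repeated experiment, against the same PC-3 arrays. CLDN7 was lower here too, CLDN1 was called lower on 1 of its 2 probe sets, and the other 6 claudins did not pass. Of the 12 tested probe sets, 2 were called lower, against a background of 7.59% of all tested probe sets. Limma called 0 higher, against 8.66% of all tested probe sets and 8.98% of genes, and 0 were higher at an unadjusted p under 0.05, while 6 were lower at that unadjusted level. By the brightest probe set, 1 of 8 claudins was lower, against 10.1% of genes, a share near the background, and the median log2 fold change was -0.50, against -0.02 for all genes. Both TEM2-5 arrays were below both PC-3 arrays on 8 of the 12 probe sets, against 28.1% of all tested probe sets, and the same held for TEM4-18 on 7 of the 12, against 30.5%. The comparisons of both TEM lines share their PC-3 arrays.

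CLDN7 averaged 1434 ± 222 in TEM2-5 and 7099 ± 434 in PC-3 (SD, n = 2 each). The log2 fold change was -2.27 ± 0.35 (SE, limma adjusted p = 0.00149), 4.84-fold lower. It was not called without the mean-variance trend (limma adjusted p = 0.0559).

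CLDN1 was called on its dimmer probe set, 218182_s_at, with a log2 fold change of -1.08 ± 0.31 (SE, limma adjusted p = 0.0375), and not on 222549_at, with -0.74 ± 0.24 (SE, limma adjusted p = 0.0576). The 95% intervals were -1.76 to -0.40 and -1.26 to -0.22. The brighter probe set, 222549_at, passed with 4 times the pseudocount (limma adjusted p = 0.0426), quantile normalization (0.0441) and a filter at the 60th percentile (0.0464). It missed the threshold with a pseudocount of 1 (limma adjusted p = 0.0687), with no filter on signal (0.133) and without the mean-variance trend (0.145). Without TEM2-5 replicate 2 the value of 218182_s_at was -0.74 (limma adjusted p = 0.241), without PC-3 replicate 1 it was -1.11 (limma adjusted p = 0.119) and without PC-3 replicate 2 it was -1.05 (limma adjusted p = 0.156). It also missed the threshold with a pseudocount of 1 (limma adjusted p = 0.0547), with no filter on signal (0.108) and without the trend (0.0778), so the call was lost in 6 of 12 alternatives. The number of claudin probe sets called in TEM2-5 was 1 without each of these arrays, 3 without TEM2-5 replicate 1, and 4 without TEM4-18 replicate 1 or without TEM4-18 replicate 2.

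The remaining claudins did not pass in TEM2-5, with log2 fold changes between -0.58 and 0.29. The 95% intervals of the log2 fold change were -0.67 to -0.03 for CLDN4, -0.90 to -0.06 for CLDN11 on 228335_at, -0.52 to 0.03 for CLDN12, -1.05 to 0.01 for CLDN3 on 203953_s_at and -1.25 to 0.08 for CLDN23. On 203954_x_at of CLDN3 the interval was -0.96 to -0.00097 (limma adjusted p = 0.169). The adjusted values for CLDN4, CLDN11 and CLDN12 were 0.134, 0.115 and 0.227 (limma). Without TEM2-5 replicate 1, CLDN3 was called on 203954_x_at at -0.88 (limma adjusted p = 0.0149). CLDN11 on 228335_at was called without TEM4-18 replicate 1 and without TEM4-18 replicate 2 (limma adjusted p = 0.036 and 0.0382), with its value of -0.48 the same.

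**Figure D2:**
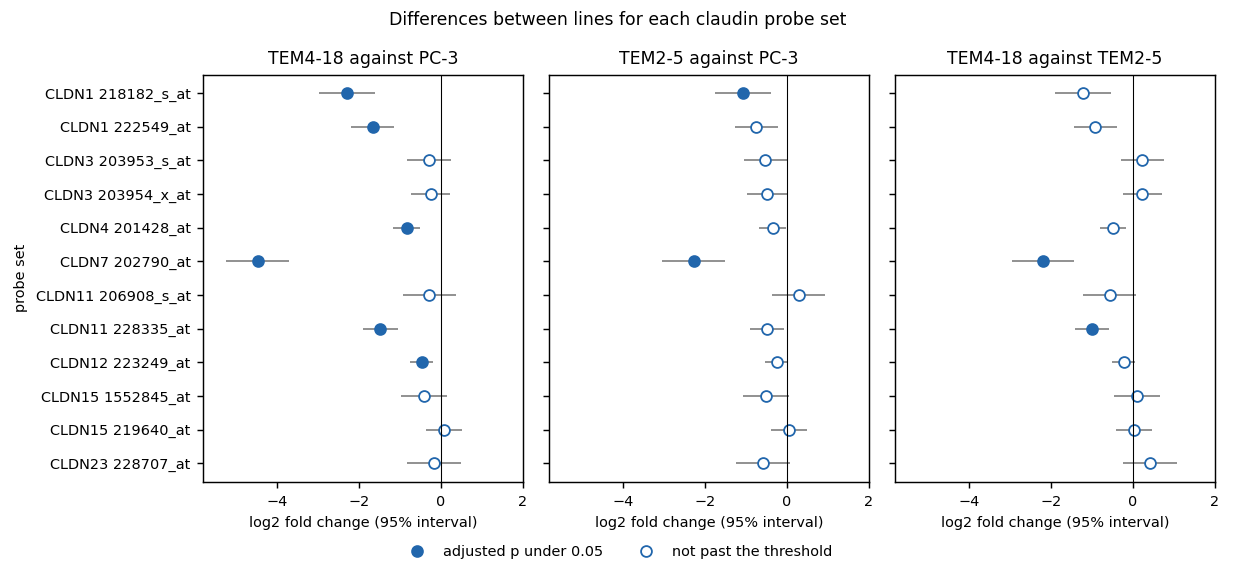
Log2 fold change of each tested claudin probe set, with its 95% interval from the limma fit, in TEM4-18 and in TEM2-5, each against PC-3, and in TEM4-18 against TEM2-5. Filled points passed the adjusted threshold: 6 in the first panel, 2 in the second and 2 in the third, all below 0.

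The third comparison set the transmigrated lines against each other. Of the 12 tested claudin probe sets, 2 differed, both lower in TEM4-18, against a background of 1.43% of all tested probe sets called lower and 1.78% called in either direction. Limma called 0 higher, against 0.357% of all tested probe sets, and 0 were higher at an unadjusted p under 0.05. By the brightest probe set these were 2 of 8 genes, against 2.26% of genes called lower and 2.75% called in either direction. CLDN7 was 4.58-fold lower in TEM4-18 than in TEM2-5, with 311 ± 235 in TEM4-18 and 1434 ± 222 in TEM2-5 (SD, n = 2 each) and a log2 difference of -2.19 ± 0.35 (SE, limma adjusted p = 0.00952). CLDN11 on 228335_at was 1.99-fold lower, with 2412 ± 739 in TEM4-18 and 4787 ± 973 in TEM2-5 (SD, n = 2 each) and a log2 difference of -0.99 ± 0.19 (SE, limma adjusted p = 0.0275). The CLDN7 difference was -2.91 without TEM4-18 replicate 1, -1.48 without TEM4-18 replicate 2 and -2.04 without TEM2-5 replicate 1, where it did not pass (limma adjusted p = 0.0991). CLDN11 was at -0.68 without TEM4-18 replicate 1 (limma adjusted p = 0.0971) and at -0.79 without TEM2-5 replicate 2 (limma adjusted p = 0.205), so 1 claudin probe set was called without TEM4-18 replicate 1 or without either TEM2-5 array. Neither gene passed with no filter on signal (limma adjusted p = 0.0534 for CLDN7 and 0.0981 for CLDN11) or without the mean-variance trend (0.235 and 0.302).

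CLDN1 and CLDN4 were lower in TEM4-18 than in TEM2-5 by 0.92 and 0.49 on the log2 scale on their brighter probe sets, which missed the threshold (limma adjusted p = 0.0957 and 0.155). CLDN3 and CLDN23 had log2 differences of 0.23 and 0.43 between TEM4-18 and TEM2-5, in the opposite direction and with 95% intervals that included 0. The mean signal was lowest in TEM4-18, intermediate in TEM2-5 and highest in PC-3 on 6 of the 12 claudin probe sets, namely both of CLDN1 and those of CLDN4, CLDN7, CLDN12 and 228335_at of CLDN11, against 26.3% of all tested probe sets. These 6 are also the probe sets called in TEM4-18 against PC-3, so the order is not independent of that call. On the other 6 probe sets, those of CLDN3, CLDN15 and CLDN23 and 206908_s_at of CLDN11, the order differed.

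Claudins outside the set of 8 were called at a share near that of all genes. The 8 claudins and the lists were chosen with earlier results of these data known, so their contrast is no independent test. Of 16 further claudins, 12 had a single-symbol probe set and 7 of these were tested. In TEM4-18, 1 was lower and 1 higher than in PC-3, with a median log2 fold change of 0.40, and 29.3% of genes were called in either direction. In TEM2-5, 1 was lower and 0 higher, and 19.0% of genes were called. CLDN8, a barrier-forming claudin of the distal kidney tubule, had 5.84 and 119 in TEM4-18, 97.4 and 44.2 in TEM2-5, and 535 and 369.6 in PC-3. It fell, with a log2 fold change of -2.33 in TEM4-18 (limma adjusted p = 0.0197) and -2.05 in TEM2-5 (limma adjusted p = 0.0489), and was tested only because PC-3 lay above the filter. CLDN14, known from the inner ear and kidney and picked out only once its values were known, was the one that rose in TEM4-18, with 1195 and 1260.1 in TEM4-18 against 663 and 868 in PC-3 (limma adjusted p = 0.0197).

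Most of the other tight junction proteins fell in both TEM lines. Of 22 listed scaffolds, tricellular proteins and junctional adhesion molecules, 18 were tested. In TEM4-18, 12 were lower and 2 higher than in PC-3, with a median log2 fold change of -1.57. Of all genes, 16.0% were called lower and 13.3% higher there. In TEM2-5, 12 were lower and 1 higher, with a median of -1.17, against 10.1% of all genes called lower and 8.98% called higher. Between the TEM lines, 6 were lower and 1 higher in TEM4-18, against 2.26% of all genes called lower and 0.492% called higher. LSR, which recruits tricellulin to the corners where epithelial cells meet, fell, with log2 fold changes of -4.91 in TEM4-18 and -3.01 in TEM2-5. ILDR1, a related tricellular protein, fell with -3.45 in TEM4-18 and -2.29 in TEM2-5, and both TEM means of ILDR1 lay below the filter. Other genes counted as lower in TEM4-18 also had TEM4-18 means below the filter, and were tested only because other lines were brighter. PALS1, a polarity scaffold, rose by 1.17 in TEM4-18 and 0.84 in TEM2-5.

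The list of membrane partners of claudins also held a protease that cleaves EPCAM and an inhibitor of that protease. It was read for 7 of 8 listed genes, and all 7 were tested. In TEM4-18, 4 were lower and 0 higher than in PC-3 by limma, with a median log2 fold change of -0.84. Of all genes, 16.0% were called lower and 13.3% higher there. In TEM2-5, 4 were lower and 1 higher (median -0.62), against 10.1% and 8.98% of all genes. ST14, the membrane protease matriptase that cleaves EPCAM, gave 49.2 and 120 in TEM4-18, 893 and 1275 in TEM2-5, and 6527 and 8716 in PC-3, with its TEM4-18 mean below the filter. SPINT1, an inhibitor of matriptase, fell, with log2 fold changes of -3.14 in TEM4-18 and -2.04 in TEM2-5. The one that rose in TEM2-5 was the tetraspanin TSPAN8, also picked out only once its values were known, with 254 and 288 in TEM4-18, 810.5 and 875 in TEM2-5, and 411 and 409.5 in PC-3. Its log2 fold change was 0.95 in TEM2-5 (limma adjusted p = 0.0167) and -0.52 in TEM4-18 (limma adjusted p = 0.124), and TEM4-18 was lower than TEM2-5 by a log2 difference of -1.47 (limma adjusted p = 0.00811).

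Of 19 transcription factors that act on epithelial junction genes, 13 were tested. In TEM4-18, 9 were lower and 3 higher than in PC-3, against 16.0% of all genes called lower and 13.3% called higher. The counts in TEM2-5 were also 9 and 3, against 10.1% and 8.98% of all genes. OVOL2, which maintains epithelial identity, fell, with log2 fold changes of -4.26 in TEM4-18 and -2.29 in TEM2-5. EHF, an epithelial ETS factor, fell with -6.82 in TEM4-18, where its mean lay below the filter, and -2.26 in TEM2-5. ZEB1, the E-box binding repressor, gave 6866 and 7074 in TEM4-18, 6244 and 6594 in TEM2-5, and 1859 and 1824 in PC-3. It rose by 1.89 in TEM4-18 and 1.77 in TEM2-5 on the log2 scale, and between TEM4-18 and TEM2-5 its log2 difference was 0.12, with a 95% interval of -0.09 to 0.33 (limma adjusted p = 0.700). TWIST1, a mesenchymal factor, rose by 0.62 in TEM4-18 and 0.42 in TEM2-5 on the log2 scale.

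**Figure D3:**
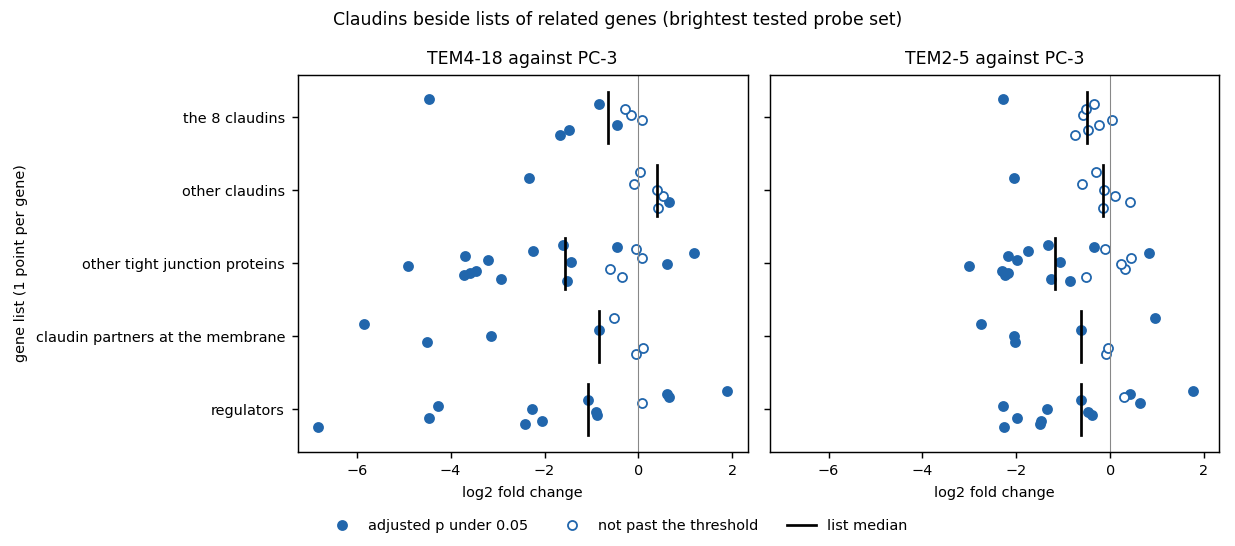
Log2 fold change of each gene, by its brightest tested probe set, in TEM4-18 against PC-3 and in TEM2-5 against PC-3, for the 8 claudins and 4 lists of related genes, with filled points past the adjusted threshold and a bar at the list median. The claudin medians of -0.65 and -0.50 lie nearer 0 than those of the other tight junction proteins, at -1.57 and -1.17.

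The genes most alike to each changed claudin were found by the Euclidean distance between log2 signals over the 6 arrays, each gene centred on its own mean, among 13620 other genes. Nearest to CLDN7 were SLPI, a secreted protease inhibitor of epithelia, at a distance of 0.46, RAB25, a small GTPase of epithelial recycling endosomes, at 0.55, and C1orf210 at 0.60. Their log2 fold changes were -4.35, -4.22 and -4.27 in TEM4-18 and -2.19, -2.07 and -2.22 in TEM2-5. That these are close to those of CLDN7 follows from choosing genes by distance on the same arrays. Nearest to CLDN1 were MBNL3, a splicing regulator, SATB1, a chromatin organiser, and TFCP2L1, a transcription factor of epithelia, at 0.25 to 0.30. Nearest to CLDN11 were PTGFR, a prostaglandin receptor, ST8SIA4, a polysialyltransferase, and RGS4, a regulator of G protein signalling, at 0.20 to 0.27. CLDN4 was nearest to YRDC, TTLL12 and TOB1 at 0.099 to 0.16, and CLDN12 to KDM5A, GUSB and SNX13 at 0.12 to 0.13. With 6 arrays in 3 lines, such likeness is a description of these arrays, and small changes leave many genes close to each other.

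**Figure D4:**
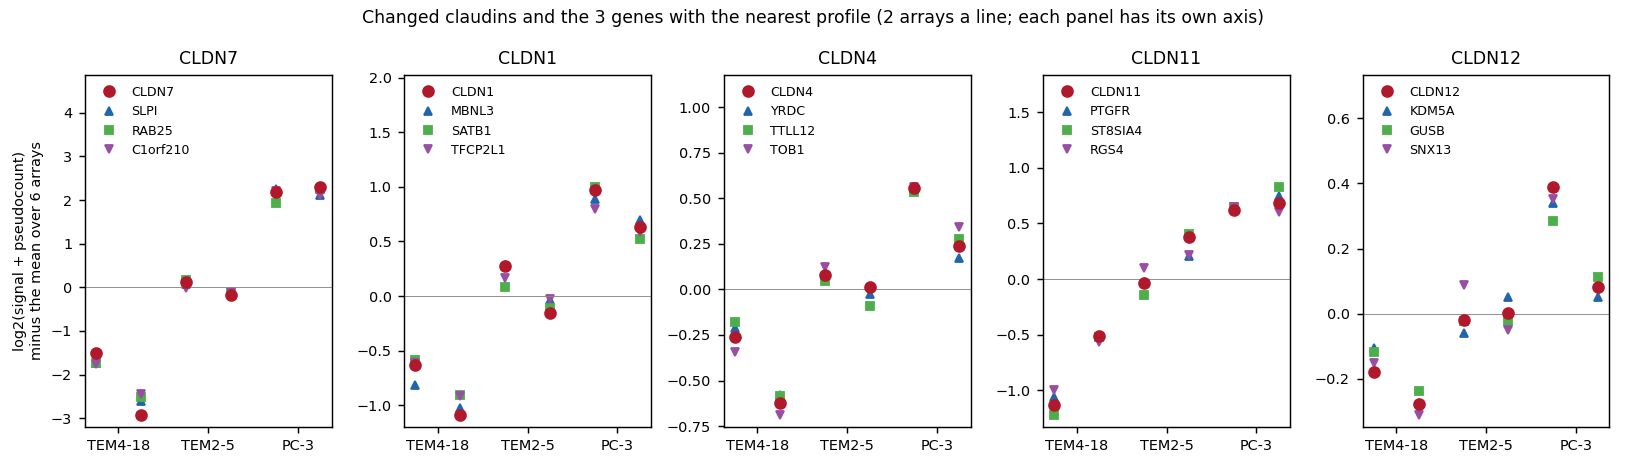
Log2(signal + pseudocount) minus the mean over the 6 arrays for the 5 changed claudins, on their brightest probe sets, and the 3 genes with the nearest profile to each, with 2 arrays a line and a separate vertical axis in each panel. The genes near CLDN7 follow it over about 5 log2 units, while those near CLDN12 follow it over less than 1.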

How the data were processed

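Total RNA of 3 cell lines was hybridised to 6 Affymetrix arrays, 2 per line. The authors deposited 1 linear intensity per probe set. These come from MAS5, per the submitters' processing notes, and its version is not given in the sources used here. The 2% trimmed mean was 1500.17 to 1500.18 on all arrays, so the intensities were taken as scaled and not normalized again. Of 54675 probe sets, 62 controls were left out, and names came from the platform annotation, with symbols checked by gene ID against RefSeq (0 changed).

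Signals were transformed to log2(value + 51.8), the pseudocount being the 20th percentile of all values. Probe sets with a mean over the 6 arrays above 174, the 40th percentile of the means, were tested (32768). MAS5 subtracts mismatch signals, so low values are noisy, and probe levels are not compared between genes. The number of arrays limits the precision.

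One limma 3.58.1 model in R 4.3.3 (lmFit, eBayes with trend) held 3 line means and 3 residual degrees of freedom. P-values are two-sided and Benjamini-Hochberg adjusted over all tested probe sets. The fit was tested on simulated data. With 2 arrays a line, no permutation test can pass. Titles gave the groups, also where the source name of TEM2-5 array 2 numbers it differently. The named genes were all 8 claudins, the 3 nearest genes to each changed one, and at most 2 falling and 2 rising genes of each list, those called in both TEM lines with the largest smaller change. The claudins and lists were chosen with earlier results of these data known. Alternatives were the pseudocount, the filter, quantile normalization, no variance trend, a replicate block, leaving out each array and averaging the probe sets of a gene. Protein sequences were not used here.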

Additional observations from a re-analysis of the deposited data

Results flagged for a closer look

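CLDN7 and CLDN11 changed by different amounts in the TEM lines. The change of CLDN7 against PC-3 was larger in TEM4-18 than in TEM2-5 by a log2 difference of -2.19, and that of CLDN11 on 228335_at by -0.99. Both passed the limma test of the difference itself, which is the comparison of TEM4-18 with TEM2-5 since the PC-3 arrays cancel, and both TEM4-18 arrays lay below both TEM2-5 arrays. Neither passed with no filter on signal or without the mean-variance trend, CLDN7 did not pass without TEM2-5 replicate 1, and CLDN11 did not pass without TEM4-18 replicate 1 or without TEM2-5 replicate 2. Single arrays that stand apart could not be checked for with 2 arrays a line.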

How the results depend on the processing

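The falls of CLDN7, CLDN4, 228335_at of CLDN11 and both CLDN1 probe sets in TEM4-18 against PC-3 passed in all 12 or 13 alternatives run on probe sets, with log2 fold changes of -5.18 to -3.76 for CLDN7, -1.02 to -0.65 for CLDN4 and -1.79 to -1.16 for CLDN11. CLDN12 passed in 10 of 13. Over single probe sets and genes, 448 alternative values kept their side of the threshold, 20 lost a call, 15 gained one and 0 reversed. Claudin probe sets called numbered 5 to 6 in TEM4-18 against PC-3, 1 to 4 in TEM2-5 against PC-3 and 1 to 2 in TEM4-18 against TEM2-5 when single arrays were left out, where the remaining array of that line is assumed to vary like those of the other lines. In TEM2-5 against PC-3 the count was 1 with a pseudocount of 1, 1 with the low-value filter removed and 0 without the mean-variance trend, where limma had 3 at an unadjusted p under 0.05. Between the TEM lines it was 0 with no filter and 0 without the trend, with 5 at that unadjusted level under each. Over all probe sets the limma counts were 5360, 2320 and 125 without the trend for TEM4-18 and TEM2-5, each against PC-3, and TEM4-18 against TEM2-5, and 300 between the TEM lines with no filter. They ranged over 5980 to 7747, 2825 to 5135 and 218 to 550 without single arrays. The count in TEM2-5 against PC-3 was 2968 with TEM2-5 replicate 1 left out, 2825 without replicate 2 of that line and 3323 without PC-3 replicate 2, against 5325 with all arrays. That between the TEM lines was 321 with TEM4-18 replicate 2 left out, 218 with TEM2-5 replicate 1 left out and 265 without replicate 2 of TEM2-5, against 584 with all arrays. No setting moved the median of all tested probe sets by 0.1 on the log2 scale. The causes were not tested. With the replicate number as a block, 6 claudin probe sets were called in TEM2-5 against PC-3 and 4 between the TEM lines, against 2 and 2 without it. Deviations of arrays with the same number correlated at 0.062 to 0.098, a measure that does not register a shift shared by all probe sets. The first-numbered array had the higher median signal in each line. These medians were 296 and 267 in TEM4-18, 310 and 281 in TEM2-5, and 317 and 282 in PC-3. The labels give these numbers no shared culture or day, so they were not taken to pair the arrays.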
